A study of Macaca mulatta with 5 samples.

Results

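The lung of a male rhesus macaque (Macaca mulatta) was compared with cerebellum, kidney, heart and spleen by RNA-Seq of polyadenylated RNA with the strand kept, from 1 library for each tissue, so that lung was 1 of 5 libraries. All of them were labelled as male, and no genotype, treatment or age was given. The study's methods describe cerebellum, kidney, lung and heart as coming from a single animal, whereas the animal behind the spleen library is not stated in the sources used here. The libraries were joined by transcript, and each of the 28633 genes with an identifier was represented by the transcript with the highest summed RPKM (the read count scaled to kilobases of exon and to the properly mapped reads of the library). Of these genes, 15688 reached 1 RPKM in at least 1 of the 5 tissues and were compared, and 268 of them were at least 4 times higher in lung than in every other tissue. A compared gene below 1 RPKM in every other tissue had passed this filter through lung alone, and so was highest in lung. There were no replicates, so values are given for these libraries with their counting intervals and without a test between tissues. Each tissue was a mixture of cells, and fewer cells of a type and less RNA per cell cannot be told apart in such data.

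The lung exchanges gas across alveoli that are lined by flat type 1 cells, which cover most of the surface, and by cuboidal type 2 cells, which secrete surfactant, the mixture of lipids and surfactant proteins that keeps alveoli open. The conducting airways are lined by secretory club cells and by ciliated cells that move mucus. Beneath them lies a dense capillary bed in a scaffold of elastic fibres and collagen, with resident macrophages and other immune cells in the airspaces and tissue.

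The lung library held 77785104 properly mapped reads, and the other libraries held between 48306898 and 81517974. A count of 3 reads, taken as the lower limit of what a library can show, corresponded to 0.0386 RPKM in lung for a transcript of 1000 bp, and to between 0.0368 and 0.0621 RPKM in the others. Reads summed over transcripts came to 91.5% of the properly mapped reads in lung and to 47.9% in heart, the highest and the lowest of the 5. Among transcripts that had any read, the upper quartile of RPKM was 8.91 in lung and 3.99 in heart, with cerebellum, kidney and spleen between 7.04 and 9.85. The median gene in lung differed from the median of the other tissues by 0.32 on the log2 scale as deposited. The difference was 0.12 after upper quartile scaling, 0.03 after TMM scaling and -0.03 after DESeq2 size factors. These scaled values cover the 15463, 15450 and 15418 genes that reached 1 RPKM after each scaling.

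Lung was the highest of the 5 tissues for 3383 genes, or 21.6% of those compared, and the lowest for 799 genes, or 5.09%. This split depended on the scaling, since TMM factors gave 2447 genes highest and 2002 lowest, and DESeq2 size factors gave 2149 and 2409. A ratio was computed for each gene as RPKM + 1 in lung over RPKM + 1 in the highest of the other 4 tissues, where the added 1 RPKM damps ratios between low values. It reached 4 in 268 genes, 1.71% of those compared, against 4.35% in cerebellum, 3.39% in kidney, 1.79% in spleen and 1.04% in heart when each was treated in the same way. At a ratio of 2 the number in lung was 860 (5.48%), and at a ratio of 10 it was 73 (0.465%). The count was 168 with DESeq2 size factors, 423 without kidney and 693 without spleen.

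**Figure D1:**
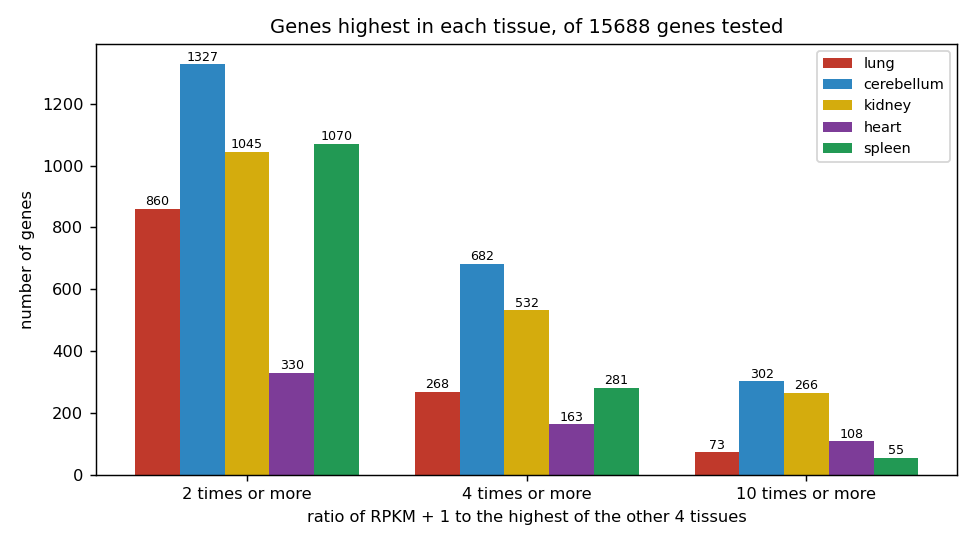
Number of genes, on the vertical axis, whose RPKM + 1 in a tissue was at least 2, 4 or 10 times that of the highest of the other 4 tissues, with 1 bar per tissue. Lung (red) has 860, 268 and 73 genes, below cerebellum and kidney at every ratio.

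Among the 268 genes, 195 had a ratio between 4 and 10, 58 between 10 and 100, and 15 of 100 or more. The highest other tissue was spleen for 78 of them, kidney for 72, cerebellum for 65 and heart for 53. In 122 genes all 4 other tissues were below 1 RPKM, and 24 genes had no read outside lung. The median lung level was 22.6 RPKM. Together the transcripts that represented the 268 genes, 1 per gene, took 7.50% of the reads summed over all transcripts in lung. A unique symbol was available for 189, and 79 are known by identifier only. The genes nearest to the threshold were MMP28 and the miRNA host locus mml-mir-23a just inside, the latter with a ratio of 4.03, and the chemokine gene CCL20 and the prostaglandin synthase gene PTGS2 just outside, both with a ratio of 3.98.

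Surfactant and other products of alveolar type 2 cells stood farthest from the other tissues. SFTPC, which encodes the hydrophobic surfactant protein C, was at 4095 RPKM in lung (95% counting interval 4082 to 4108, from 369787 reads), 0.0528 in cerebellum, 0.0713 in kidney and 0 in heart and spleen. SFTPB, the gene of surfactant protein B, which is required for surfactant function, was at 2805 RPKM in lung (interval 2797 to 2812), 0.065 in kidney and 0 in the other 3 tissues. Their ratios to the highest other tissue were 3823 and 2635, the largest of all genes compared. SFTPC lies on chromosome 8 between 22085106 and 22088107, and SFTPB on chromosome 13 between 86232784 and 86242399 (rheMac2). SFTPD, the gene of a surfactant collectin that binds microbes, was at 142 RPKM in lung and had no read in any other library, so that it was at least 15947-fold higher in lung when 3 reads in a library are taken as the limit. The phosphate transporter gene SLC34A2 was at 310 RPKM in lung, 0.863 in kidney, 0.0615 in spleen, 0.0169 in cerebellum and 0 in heart.

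The 30 gene lists used here and below were chosen with earlier results of these data known, so their counts are descriptions and not a test. Not every gene of the type 2 list was particular to lung. Of its 12 measured members, 11 were highest in lung and 6 were at least 4 times above every other tissue, against 21.6% and 1.71% of all genes. These shares over all genes stand beside every list count below, as deposited. With DESeq2 size factors they were 13.7% and 1.07%. The protease gene CTSH was at 175 RPKM in lung, 169 in spleen and 111 in kidney, so that lung and spleen were nearly level. LAMP1, a general lysosomal membrane protein gene, was at 97.0 in lung, 98.4 in kidney and 94.4 in spleen. Some further members are given here after their values were seen. LAMP3, a lamellar body protein gene, was at 153 in lung and 5.40 in spleen, with no other tissue above 0.0135. ABCA3, the lipid transporter of lamellar bodies, was at 28.5 in lung, but also at 12.8 in cerebellum, a ratio of 2.14. The listed SFTPA1, SFTPA2 and PGC were not matched to an identifier.

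**Figure D2:**
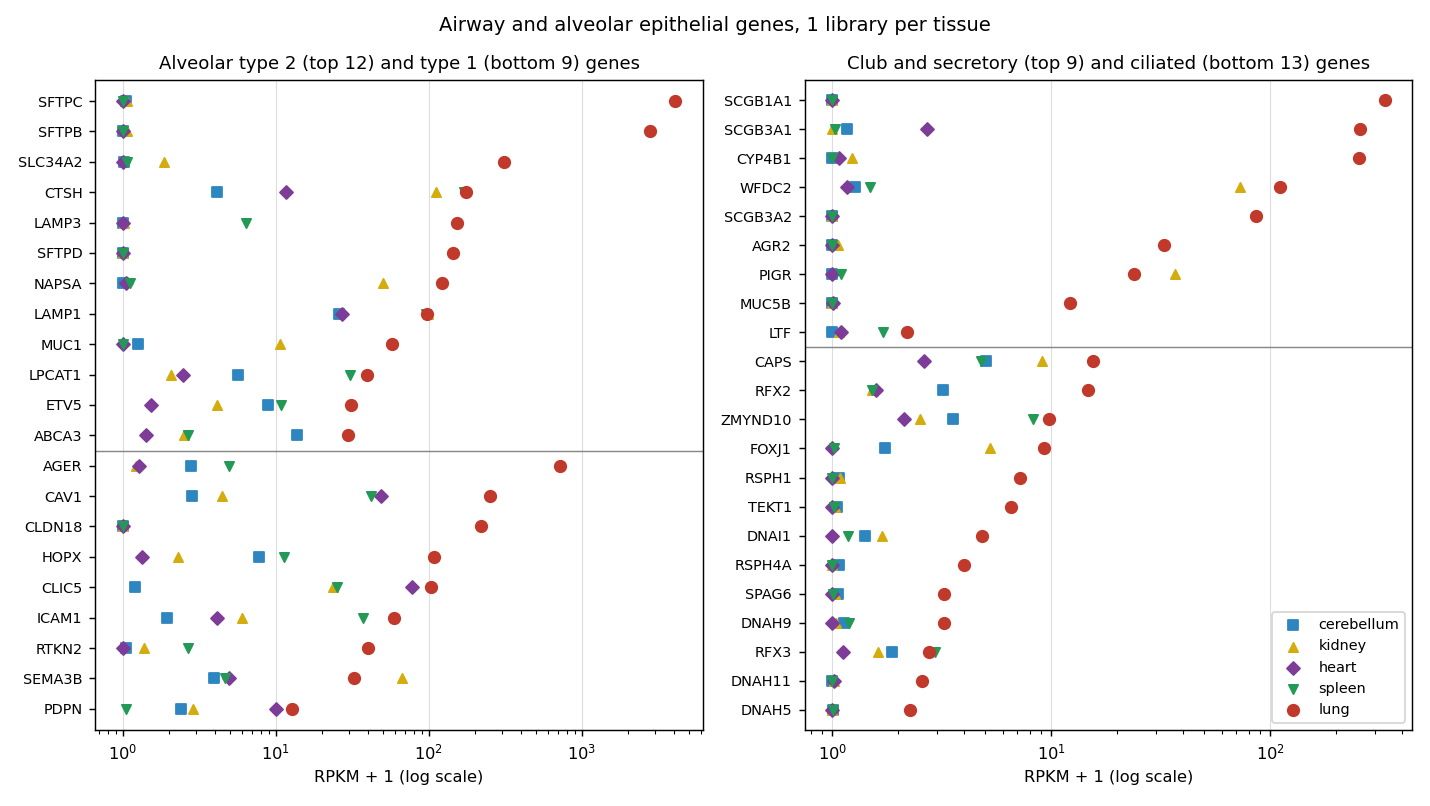
RPKM + 1 on a log axis for the measured members of 4 epithelial gene lists, with 1 symbol per tissue and a value of 1 where a gene had no read. Lung (red circles) is farthest right for most genes, by over 3 orders of the log axis for SFTPC and SFTPB, while CTSH, LAMP1, PIGR, SEMA3B and RFX3 show another tissue level with or above lung.

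Genes of alveolar type 1 cells were highest in lung for 8 of 9 measured members, and 5 of the 9 passed the ratio of 4. AGER, which encodes the receptor for advanced glycation end products, was at 719 RPKM in lung (interval 712 to 727), 3.97 in spleen, 1.80 in cerebellum, 0.277 in heart and 0.218 in kidney. CLDN18, a tight junction gene, was at 220 in lung without a read elsewhere, and was thus at least 17002-fold higher there. The caveolin gene CAV1 was at 253 in lung, 47.9 in heart, 40.9 in spleen, 3.44 in kidney and 1.82 in cerebellum. The homeodomain gene HOPX was at 108 in lung and at most 10.3 elsewhere, and RTKN2 was at 39.1 in lung and at most 1.69 elsewhere. CLIC5, a chloride channel family gene, was at 103 in lung and 76.8 in heart and lost its lead to heart under each of the 3 scalings, and SEMA3B, at 31.4 in lung and 66.2 in kidney, was the member that lung did not lead. After upper quartile, TMM or DESeq2 scaling, 6 of the 9 were highest in lung and 4 passed the ratio of 4.

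The club and secretory list held the largest median of all 30 lists, with 8 of 9 measured members highest in lung and 6 at least 4 times above every other tissue. SCGB1A1, the secretoglobin that defines club cells, was at 333 RPKM in lung (interval 326 to 339, from 11202 reads), and SCGB3A2 was at 84.9, both without a read elsewhere. These values placed them at least 2319-fold and 714-fold higher in lung. SCGB3A1 was at 255 in lung, with 1.71 in heart as the highest other value. CYP4B1, a cytochrome P450 of the airway, was at 252 in lung and at most 0.227 elsewhere. The disulphide isomerase gene AGR2, which is used in mucin production, was at 31.8 in lung, with 0.0557 in kidney and 0 in the other 3. The gel-forming mucin gene MUC5B was at 11.2 in lung and at most 0.00741 elsewhere. WFDC2 was nearer between tissues, with 110 in lung and 71.4 in kidney, and the immunoglobulin transporter gene PIGR was lower in lung, 22.8, than in kidney, 35.6. The counts for the list, 8 highest in lung and 6 past the ratio of 4, were the same after upper quartile, TMM and DESeq2 scaling. All 9 members were below 1 RPKM in cerebellum and in spleen, 8 in heart and 7 in kidney. Members below 1 RPKM in all 4 were measured only through lung.

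Ciliated cell genes were low in level, and most measured members were highest in lung. Of 13 measured members, 12 were highest in lung, 9 were at least 2 times above every other tissue and 3 at least 4 times. However, 10 of the 13 were below 1 RPKM in cerebellum, in kidney and in spleen, and 11 in heart. Members below 1 RPKM in all 4, such as RSPH1, TEKT1 and DNAH5, were measured only through lung and had to be highest there. The calcium-binding gene CAPS was the most abundant at 14.5 RPKM in lung, against 8.11 in kidney, 4.01 in cerebellum, 3.78 in spleen and 1.63 in heart. The ciliogenesis regulator RFX2 was at 13.7 in lung and 2.20 in cerebellum, with 0.585, 0.513 and 0.510 in heart, kidney and spleen. FOXJ1, the master regulator of motile cilia, was at 8.28 in lung, 4.25 in kidney and 0.734 in cerebellum. The radial spoke gene RSPH1 was at 6.23 and the tektin gene TEKT1 at 5.54 in lung, both at 0.087 or less in the other 4 tissues. Levels of this size are damped by the added 1 RPKM, and with 0.1 RPKM in its place 9 of the 13 passed the ratio of 4. Genes named CFAP, for cilia and flagella associated proteins, were counted after the values of the other ciliary genes were seen. Of 26 measured CFAP genes, 21 were highest in lung and 6 passed the ratio of 4, led by CFAP126 with 14.4 RPKM in lung and 0.241 in kidney. The filter at 1 RPKM applied to them in the same way.

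The transcription factor list was only partly measurable, because 8 of its 18 genes were matched to an identifier. NKX2-1, which specifies lung and thyroid, was at 32.9 RPKM in lung (interval 32.1 to 33.7, from 6191 reads) and had no read elsewhere, a difference of at least 1282-fold. FOXA2, a forkhead factor of endoderm, was at 11.998 in lung and likewise had no read elsewhere. TBX3 was at 28.7 in lung and 4.03 in kidney, and TBX5, a factor shared by lung and heart development, was at 20.2 in lung and 5.07 in heart with no read in the other 3 tissues. GATA6 was at 6.46 in lung, 6.33 in spleen and 9.16 in heart. Lung was the highest tissue for 7 of the 8, and 3 passed the ratio of 4, against 21.6% and 1.71% of all genes. After TMM or DESeq2 scaling, 6 of the 8 were highest in lung and 3 passed. FOXP2, counted among the 7, was nearly level, at 1.28 in lung and 1.14 in kidney. NKX2-1 and FOXA2 were measured only through lung.

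Several genes outside the lists above were among the 20 with the largest ratios. Of these, CHIT1 belongs to the macrophage list and FMO2 to the detoxification list, both treated below. CHIT1, the chitinase of activated macrophages, was at 305 RPKM in lung, 0.476 in spleen and at most 0.127 in the other 3. PLA2G1B, a secreted phospholipase A2 best known from the pancreas, was at 209 in lung and at most 0.236 elsewhere. MS4A15 was at 112 in lung and SCEL, which encodes sciellin of stratified epithelium, at 40.8, both without a read elsewhere. The alkaline phosphatase gene ALPI was at 37.9 in lung and 0.0603 in kidney, and MCEMP1 was at 29.8 in lung and 0.206 in spleen. FMO2, a flavin monooxygenase abundant in primate lung, was at 243 in lung, 9.01 in heart and 8.91 in kidney. Of these 20 genes, 16 were below 1 RPKM in all other tissues and 7 had no read there, and all 20 stayed above the ratio of 4 under upper quartile scaling, TMM scaling and the sum over transcripts.

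A pair of genes without a symbol ranked just behind SFTPC and SFTPB. ENSMMUG00000009795 was at 3036 RPKM in lung, 0.213 in cerebellum, 0.0156 in kidney and 0 in heart and spleen, and it carried more reads than any other gene in lung, 627064. ENSMMUG00000030564 was at 548 in lung and 0.305 in cerebellum, without a read in the other 3. Together with SFTPD and the mannose-binding lectin gene MBL1 (28.2 in lung, 3.93 in kidney) they form a run of 4 genes on chromosome 9 between 57416366 and 57523139 (rheMac2), all past the ratio of 4. The 268 genes formed 23 such runs of genes no more than 100000 bp apart, with 50 genes in all and 4 in the largest. Other runs joined the fibrinogen genes FGB, FGA and FGG on chromosome 5, AGR2 with AGR3 on chromosome 3, AGER with NOTCH4 on chromosome 4, and SFTPC with BMP1 and a gene without a symbol on chromosome 8. BMP1, a procollagen protease gene, was at 111 RPKM in lung and 11.1 in cerebellum, and how reads near the border of neighbouring models were assigned is not stated in the sources used here.

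Endothelial genes were raised in lung over a broad range rather than by a few extreme ratios. Of 22 measured members, 18 were highest in lung, 15 by at least 2 times and 6 by at least 4 times, and no member was lowest there. RAMP2, part of the adrenomedullin receptor, was at 255 RPKM in lung, 64.2 in spleen, 43.0 in heart, 36.4 in kidney and 11.2 in cerebellum. Its partner CALCRL was at 97.2 in lung and 5.96 in spleen, the highest other value. TMEM100, a gene downstream of endothelial BMP signalling, was at 168 in lung, 2.53 in heart, 1.43 in spleen, 0.820 in cerebellum and 0.0643 in kidney, the largest ratio of the list at 48.0, or 24.7 after upper quartile and 21.2 after TMM scaling. The pan-endothelial adhesion gene PECAM1 was at 161 in lung, 53.0 in spleen, 20.2 in kidney, 14.4 in heart and 1.92 in cerebellum. CDH5, the endothelial cadherin, was at 43.0 in lung and 6.97 in spleen. PLVAP, TIE1 and NOS3 were higher in spleen than in lung, with NOS3 at 16.8 in spleen and 6.56 in lung, and the carbonic anhydrase gene CA4 was highest in cerebellum, 64.6, against 33.1 in lung. With DESeq2 size factors, 15 of the 22 were highest in lung and 3 passed the ratio of 4.

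EPAS1, which encodes the hypoxia-inducible factor 2 alpha subunit and is abundant in lung endothelium, was the most abundant gene with a symbol after the surfactant genes by reads. It was at 759 RPKM in lung, 61.6 in spleen, 44.3 in kidney, 36.9 in heart and 10.7 in cerebellum. Of the 10 genes with most reads in lung, 7 passed the ratio of 4. AHNAK, a very large scaffold protein gene, was at 212 in lung and 32.2 in spleen. ENSMMUG00000006734, without a symbol, was at 770.0 in lung, 93.7 in kidney and 73.9 in spleen and passed, while ENSMMUG00000018810 was at 356 in lung and 519 in kidney. TXNIP, an inhibitor of thioredoxin, was at 1073 in lung and 460 in spleen and did not pass, nor did the splicing gene SRRM2, at 253 in lung and 225 in spleen. PZP was at 446 in lung and 104 in spleen, but its reads could be divided with those of its close relative A2M.

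The genes of the contractile and connective tissue differed in how they stood out. Of 14 smooth muscle and pericyte genes, 11 were highest in lung and 2 passed the ratio of 4, or 8 and 1 with DESeq2 size factors. ACTA2, the smooth muscle actin, was at 153 RPKM in lung, 59.4 in spleen, 53.5 in kidney, 25.4 in heart and 4.13 in cerebellum. The enteric smooth muscle actin ACTG2 was at 80.0 in lung and 7.74 in spleen, and the smooth muscle myosin MYH11 was at 49.4 in lung and 10.7 in spleen. The pericyte gene RGS5 was at 125 in lung and 39.0 in heart, and the intermediate filament gene DES was highest in heart, 1037 against 60.5 in lung. Of 22 elastic fibre and collagen genes, 13 were highest in lung and none passed the ratio of 4. Their most abundant member in lung was decorin, DCN, at 275 in lung, 181 in spleen, 117 in heart, 20.5 in kidney and 7.19 in cerebellum. The latent TGF-beta binding protein gene LTBP4 was at 121 in lung and 32.0 in spleen. The list's median log2 ratio to the highest other tissue was 0.40 as deposited and changed sign under every scaling tried, to -0.13, -0.28 and -0.36 for upper quartile, TMM and DESeq2, with 4 of the 22 highest in lung in the last of these, so no direction is given for it.

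Among 16 genes of WNT, BMP and hedgehog signalling, 9 were highest in lung and 1 passed the ratio of 4. That gene was HHIP, which binds and restrains hedgehog ligands, at 17.7 RPKM in lung, 0.588 in kidney, 0.547 in cerebellum, 0.0800 in heart and 0 in spleen. The WNT receptor gene FZD4 was at 34.2 in lung and 15.7 in kidney, and the growth factor receptor gene FGFR2 was at 18.8 in lung and 4.28 in cerebellum. BMP3 was at 2.26 in lung and at most 0.0173 elsewhere. The list's median log2 ratio was 0.43 as deposited and -0.02 with DESeq2 size factors.

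Immune genes placed lung between spleen and the other 3 tissues. Over all genes compared, spleen was the highest tissue for 34.2% and lung for 21.6%. Of 18 measured macrophage and myeloid genes, 6 were highest in lung and 11 in spleen. Only CHIT1, given above, passed the ratio of 4, at 207. Lysozyme, LYZ, was at 345 RPKM in lung, 176 in spleen, 12.1 in kidney, 5.47 in heart and 0.519 in cerebellum. The complement gene C1QC was at 129 in lung and 1401 in spleen, and the Fc receptor chain gene FCER1G was at 188 in lung and 427 in spleen. MARCO, a scavenger receptor of alveolar macrophages, was at 10.6 in lung, 2.98 in spleen and at most 0.0448 in the others. FABP4, which alveolar macrophages also express, went against the list, at 0.801 in lung and 456 in heart, where it is known from capillary endothelium and fat. Of 7 neutrophil genes, 3 were highest in lung and 4 in spleen, and the calprotectin subunit gene S100A9 was at 551 in lung, 162 in spleen and at most 5.26 in the others. Of 5 mast cell genes, 3 were highest in lung and 2 passed the ratio of 4, the factor gene GATA2 and the carboxypeptidase gene CPA3, at 13.2 in lung and at most 0.151 elsewhere, and 1 of the 5 passed under each scaling.

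Most lymphoid genes were led by spleen. All 9 B and plasma cell genes were highest in spleen, with the B cell marker MS4A1 at 6.05 RPKM in lung, 225 in spleen and at most 0.132 elsewhere. Of 13 T and NK cell genes, 11 were highest in spleen. The exceptions were IL7R, at 85.3 in lung and 31.3 in spleen, and the granzyme gene GZMB, at 49.1 in lung and 38.02 in spleen. The 4 measured genes of MHC class II presentation were all highest in spleen, with the invariant chain gene CD74 at 571 in lung, 1857 in spleen, 145 in heart, 99.3 in kidney and 15.1 in cerebellum. That list held 15 genes, and most of its class II chain genes, such as HLA-DRA and HLA-DRB1, were not matched to an identifier. Of 13 interferon response genes, 2 were highest in lung and 10 in spleen, and IFI27 was at 251 in lung, 238 in spleen, 136 in heart, 33.5 in kidney and 8.61 in cerebellum, with the lead passing to heart under each scaling. Of 10 chemokine and cytokine genes, 3 were highest in lung, near the share over all genes, and none passed the ratio of 4, with the alarmin gene IL33 at 32.3 in lung and 15.1 in spleen. Without the spleen library, 13 of 13 T and NK cell genes, 9 of 9 B and plasma cell genes, 4 of 4 MHC class II genes and 17 of 18 myeloid genes were highest in lung, against 44.5% of all genes in that comparison.

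**Figure D3:**
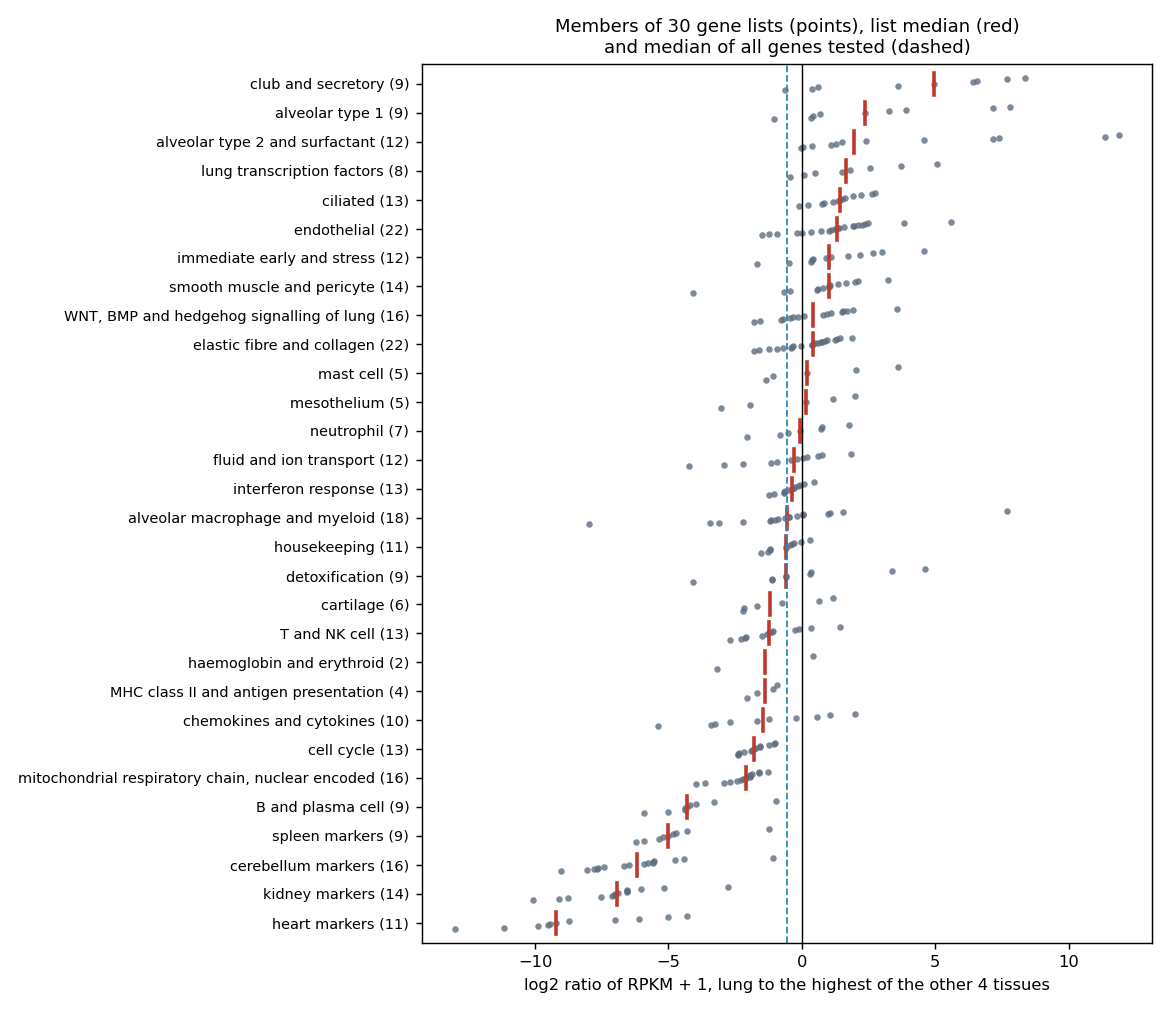
Each point is 1 gene of a list, placed by the log2 ratio of RPKM + 1 in lung to the highest of the other 4 tissues, with the number of genes measured in brackets, the list median in red and the median of all genes dashed at -0.55. Epithelial lists lie to the right, lists of B and T cells to the left, and markers of the other 4 tissues farthest left.

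No measured marker in the lists for the other tissues was highest in lung. All 14 measured kidney markers were below 1 RPKM, and the urinary protein gene UMOD was at 0 in lung and 1086 in kidney. Of 16 cerebellum markers, 11 were below 1 RPKM, and the myelin gene MBP, at 5.32 in lung and 1271 in cerebellum, was the highest of them. Of 11 heart markers, 8 were below 1 RPKM, and titin, TTN, was at 15.1 in lung, 6.07 in kidney and 516 in heart. Of 9 spleen markers, 4 were below 1 RPKM, and CXCL13 was at 3.44 in lung and 163 in spleen. Summed over these 9, RPKM was 22.7 in lung and 823 in spleen, against 0.933 in cerebellum, 1.42 in kidney and 1.46 in heart. Of 5 mesothelial genes, 3 were highest in lung and none passed the ratio of 4, with the keratin gene KRT19 at 65.8 in lung and 15.97 in kidney. The cartilage list, with 2 of 6 genes highest in lung, had no member above 2.45 RPKM there. The erythroid list could hardly be measured, since 2 of its 12 genes reached 1 RPKM in any tissue, and CA1 was at 1.495 in lung. Of 11 housekeeping genes, 6 were highest in spleen, against 34.2% of all genes, and the glycolytic gene GAPDH was at 269.6 in lung, 266 in spleen and 773 in cerebellum. The cell cycle list was led by spleen, with 12 of 13 genes highest there and none highest or lowest in lung. Its median member in lung was above the median of the other tissues by 0.70 on the log2 scale. The most abundant member, PCNA, was at 9.60 in lung and 20.6 in spleen.

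Immediate early genes respond within minutes to stimulation or handling of tissue. Of the 24 genes in the immediate early and stress list, 12 were matched to an identifier, and FOS, JUN, EGR1, IER2 and DUSP1 were not. Among the 12, 10 were highest in lung and 4 passed the ratio of 4, against 21.6% and 1.71% of all genes. FOSB was at 32.4 RPKM in lung, 0.382 in heart, 0.233 in spleen, 0.0668 in kidney and 0.0264 in cerebellum. JUNB was at 211 in lung, 45.7 in spleen, 37.3 in heart, 16.3 in kidney and 6.43 in cerebellum. The orphan nuclear receptor gene NR4A1 was at 143 in lung, 21.7 in heart and at most 9.79 in the other 3, and NR4A2 was at 25.96 in lung and 2.39 in cerebellum. KLF4, at 40.5 in lung and 21.0 in spleen, and KLF6, at 90.8 and 26.7, were also highest in lung. KLF2 was at 109 in lung, 81.7 in spleen and 45.0 in heart, but was highest in heart after TMM or DESeq2 scaling. MYC was highest in spleen, 29.4 against 8.47 in lung, and the heat shock gene HSPH1 was highest in cerebellum, 18.5 against 12.9. With TMM or DESeq2 scaling, 8 of the 12 were highest in lung and 2 passed the ratio of 4.

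A list of 12 genes induced by glucocorticoids was assembled after the values were seen, and 7 were measured, without TSC22D3, KLF9 or DUSP1. Of the 7, 6 were highest in lung, or 5 after TMM or DESeq2 scaling, against 21.6% of all genes as deposited. The ratio of 4 was passed by 1 as deposited and by 0 after upper quartile, TMM or DESeq2 scaling. These counts describe a list chosen on these values. ZBTB16 was at 50.3 RPKM in lung, 12.02 in heart, 11.2 in kidney, 3.48 in spleen and 2.68 in cerebellum. PER1 was at 71.5 in lung and 19.7 in spleen, and FKBP5 was at 54.6 in lung and 51.6 in spleen. SGK1 was highest in kidney, 74.8 against 65.5 in lung.

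In RPKM + 1, no gene in lung was at 0.25 or less of the lowest other tissue (0%). On the same scale 18 genes, 0.115% of those compared, were at 0.5 or less. The added 1 RPKM keeps a gene with a low value in any other tissue from reaching 0.25, so the count of 0 says little about such genes. With 0.1 RPKM in its place, 12 genes were at 0.25 or less. Lung was the lowest of the 5 tissues for 5.09% of genes, whereas heart was the lowest for 52.6%, and a gene low in lung had to lie below its heart value as well. GOT1, the cytosolic aspartate aminotransferase of the malate shuttle, was at 9.71 RPKM in lung, 27.8 in spleen, 27.9 in kidney, 55.8 in cerebellum and 87.4 in heart. The ankyrin gene ANK2 was at 1.01 in lung, 4.66 in spleen, 8.28 in heart, 21.1 in kidney and 37.98 in cerebellum. CDKN3, a phosphatase gene of the cell cycle, was at 0.0784 in lung from 4 reads, 1.35 in cerebellum, 3.61 in heart, 6.91 in spleen and 16.2 in kidney. S100A1, a calcium sensor of muscle, was at 3.48 in lung, 9.19 in spleen and 341 in heart. GATM, the first enzyme of creatine synthesis, was at 3.19 in lung, 8.37 in cerebellum and 58.0 in kidney. CDH2, the neural cadherin, was at 0.354 in lung, 2.05 in spleen and 32.1 in heart, and TUBA4A, a tubulin gene, was at 12.6 in lung, 27.5 in heart and 85.7 in cerebellum.

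The respiratory chain was the group in which lung was lowest. Of 16 measured nuclear-encoded subunits, 15 were lower in lung than in any other tissue, against 5.09% of all genes, and the median member was below the median of the other tissues by 1.13 on the log2 scale (-1.13). COX5A, a subunit of cytochrome oxidase, was at 4.23 RPKM in lung (interval 3.62 to 4.95, from 156 reads), 10.6 in spleen, 12.6 in cerebellum, 16.8 in kidney and 63.7 in heart. The ATP synthase beta subunit gene ATP5F1B was at 68.4 in lung, 72.8 in spleen, 149 in kidney, 192 in cerebellum and 292 in heart. CYC1, cytochrome c1, was at 40.3 in lung, 41.6 in spleen, 88.6 in cerebellum, 115 in kidney and 266 in heart. Lung and spleen were thus close for many subunits, while heart was highest. SDHA was the exception, at 5.95 in lung and 5.48 in cerebellum. After upper quartile scaling 10 of the 16 were lowest in lung, after TMM scaling 14 and after DESeq2 size factors 15. COQ10A, which acts in the same chain through coenzyme Q and is not in the list, was at 0.737 in lung, 2.78 in spleen and 24.2 in heart.

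**Figure D4:**
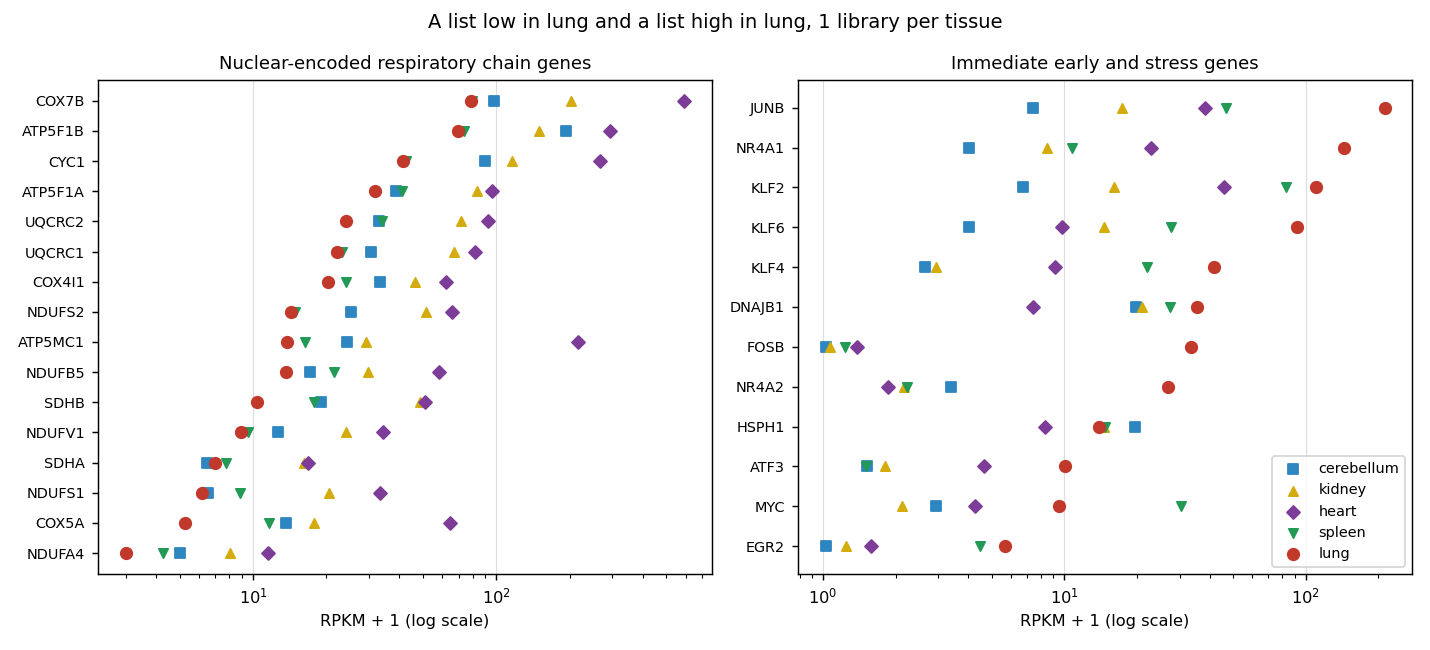
RPKM + 1 on a log axis for 16 nuclear-encoded respiratory chain genes (left) and 12 immediate early and stress genes (right), with 1 symbol per tissue. Lung (red circles) is the leftmost symbol for 15 of 16 genes on the left, often close to spleen, and the rightmost for 10 of 12 on the right.

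In the lists of detoxification and of transport genes, lung and kidney each led the same number of members as deposited. Over all genes, lung was highest for 21.6% and kidney for 18.7%. Of 9 detoxification genes, 4 were highest in lung and 2 passed the ratio of 4, FMO2 and the aldehyde dehydrogenase gene ALDH3A1, the latter at 12.3 RPKM in lung and 0.266 in cerebellum. The epoxide hydrolase gene EPHX1 was higher in kidney, 220, than in lung, 101, and GSTP1 was at 99.7 in lung and 80.8 in kidney. With DESeq2 size factors, 2 of the 9 were highest in lung, against 13.7% of all genes. Of 12 genes of fluid and ion transport, 5 were highest in lung, or 3 under each of the 3 scalings, and none passed the ratio of 4. Another 5 were highest in kidney and 2 in cerebellum. With so few genes, no direction is given for either list. The water channel gene AQP3 was at 50.5 in lung and 13.4 in kidney. SCNN1A, the alpha subunit of the epithelial sodium channel that clears alveolar fluid, was at 45.6 in lung and 61.0 in kidney, with at most 1.004 in the other 3 tissues. ATP1B1, the beta subunit gene of the sodium pump, was at 30.8 in lung and 591 in kidney.

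Transcripts typical of liver were present in the lung library. They were collected in a list after ALB, the serum albumin gene, was seen at 111 RPKM in lung (interval 109 to 113, from 12768 reads), 4.46 in kidney, 1.73 in heart and 0 in cerebellum and spleen. Of 28 measured members of that list, 22 were highest in lung and 10 passed the ratio of 4, against 21.6% and 1.71% of all genes. With DESeq2 size factors the counts were 21 and 5, against 13.7% and 1.07%. They describe a list chosen on these values. Of the 28, 25 were below 1 RPKM in cerebellum, 26 in spleen, 24 in heart and 19 in kidney. Members below 1 RPKM in all 4 were measured only through lung and had to be highest there. The apolipoprotein gene APOA2 was at 20.8 in lung and 0.416 in heart, with no read in the other 3. The fibrinogen chains FGA, FGB and FGG were at 6.84, 10.2 and 3.94 in lung, with 0.747 of FGB in kidney as the highest value of any of them elsewhere. AMBP was at 3.86, GC at 3.87, ORM1 at 8.01 and MAT1A at 3.29 in lung, all at 0.718 or less elsewhere. Of the members not highest in lung, 5 were highest in kidney and 1 in cerebellum. Among them was HPD, an enzyme of tyrosine breakdown shared by liver and kidney, at 2.13 in lung and 319 in kidney. Summed over the list, RPKM was 361 in lung and 672 in kidney. The defining kidney markers lay below 1 RPKM in lung, as given above, and whether liver RNA or expression in lung gave these values was not tested.

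The transcript with most reads took 0.881% of the reads summed over transcripts, the top 10 took 4.53% (interval 4.52 to 4.53), the top 100 took 13.1% and the top 1000 took 37.6%. The share of the top 10 was 8.21% in heart, 5.30% in kidney, 3.28% in cerebellum and 2.48% in spleen. A total of 1988 transcripts held 50% of the reads in lung, against 806 in heart and 2261 in spleen. Transcripts of 1 gene can share reads, and with 1 transcript per gene the top 10 held 7.87% in lung, 14.1% in heart, 5.34% in kidney, 4.33% in spleen and 3.90% in cerebellum, so that lung and kidney changed places. The transcripts that represented the first 3 genes, ENSMMUG00000009795, SFTPB and SFTPC, took 2.18% of the reads summed over all transcripts.

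**Figure D5:**
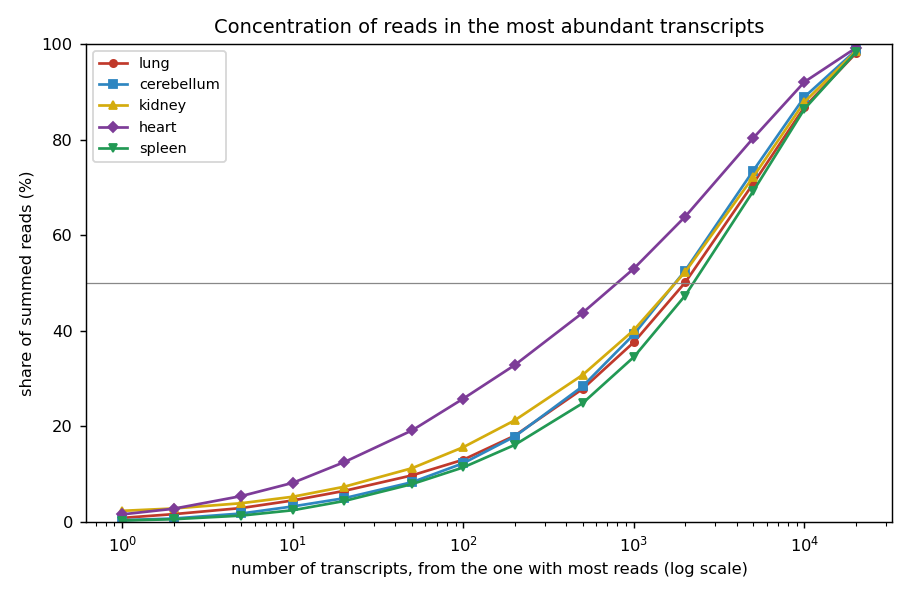
Share of the reads summed over transcripts, in percent, against the number of transcripts taken in order of their reads on a log axis, with 1 line per tissue. Lung (red) reaches 4.53% at 10 transcripts and 37.6% at 1000, between kidney and spleen at both, and heart lies above lung throughout.

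Lung was closest to spleen in its overall profile. Over the 15688 genes, Spearman's coefficient of RPKM between lung and spleen was 0.794, against 0.718 with heart, 0.676 with kidney and 0.517 with cerebellum, as a description of these libraries in which genes are not independent. Lung and spleen were at least 4 times apart for 6.90% of genes, the smallest share of any pair of the 5 tissues, and lung and cerebellum for 18.8%. Genes that lung shared with only 1 other tissue, both at least 4 times above the remaining 3, numbered 299 with spleen (1.91%), 90 with kidney, 25 with cerebellum and 13 with heart. Lung also had the most genes at 1 RPKM or more as deposited, 13008, against 12510 in spleen and 9314 in heart. Genes that reached that level in 1 tissue alone numbered 803 in cerebellum, 553 in lung, 546 in spleen, 488 in kidney and 130 in heart.

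The study was concerned with RNA editing, and the editing enzymes were looked up after other values were seen. ADAR was at 31.8 RPKM in lung (interval 31.3 to 32.3), 43.9 in spleen, 19.8 in kidney, 16.9 in cerebellum and 5.69 in heart. ADARB1 was at 13.2 in lung, 21.4 in cerebellum, 2.66 in spleen, 1.71 in kidney and 0.608 in heart. Lung was therefore next to the highest tissue for both.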

How the data were processed

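Strand-specific poly(A)-positive libraries of lung, cerebellum, kidney, heart and spleen were analysed, with 1 sample per tissue. Per the study's methods, read pairs were aligned with BWA to rheMac2 and to Ensembl transcripts, keeping unique alignments, and the submitters' processing notes name TopHat 1.2.0. The counting tool is not given in the sources used here. The authors deposited, for 51763 transcripts, a read count that was not normalized and an RPKM, which divides that count by exon length and by the properly mapped reads named in the header. The deposited RPKM values were used as they stand.

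Rows were joined by transcript. For 7 transcripts the files disagree on exon length, and RPKM followed the length given in each. The 8057 transcripts without a gene identifier were kept apart. Each gene was represented by the transcript with the highest summed RPKM, and genes with at least 1 RPKM in any tissue were compared. Ratios used a pseudocount of 1 RPKM and thresholds of 4, 2 and 10. Intervals are 95% Wilson intervals of a transcript's reads among the properly mapped reads, the limit for a count of 0 was set at 3 reads, and both cover counting error only. The ratio counts were tested on simulated data.

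Symbols were taken from a table that pairs 15556 of the 28633 identifiers with current names. A symbol shared by several identifiers (51 symbols) was not used. A pairing may miss the main locus of a gene family, since ACTB was at 5.19 RPKM in lung and HBA1 had no read in any library. Coordinates are those deposited for rheMac2, written 1-based. No transcript of the mitochondrial genome had a read.

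The members and the 30 gene lists, with 500 distinct genes, were chosen with earlier results of these data known. Named were the 20 genes with the largest ratio among those with a symbol and 50 reads in lung, the 10 with the smallest ratio to the lowest tissue and 50 reads in every other, the 10 with most reads, and for each list the 4 with the highest lung RPKM and the 3 with the largest ratio. Other names were added after their values were seen: list members given for contrast, the genes at the threshold, members of the chromosomal runs, and the hepatocyte, glucocorticoid, CFAP and ADAR genes.

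Alternatives were another pseudocount, no filter, upper quartile scaling, TMM factors of edgeR 4.0.16, size factors of DESeq2 1.42.0, other transcripts for a gene, other ratios and leaving out each tissue. Python 3.11.15 (numpy 2.4.6, pandas 2.3.3, matplotlib 3.10.9) and R 4.3.3 were used. Some members of the lists are not reported here by name.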

Additional observations from a re-analysis of the deposited data

Results flagged for a closer look

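Transcripts without a gene identifier were outside the comparisons above, and 37 of the 3354 that reached 1 RPKM in any tissue were at least 4 times higher in lung than in every other tissue (1.103%). They are listed because a signal appeared in data that the comparisons did not use. The same count was 152 in kidney, 116 in cerebellum, 59 in spleen and 37 in heart, so the share in lung lay at the low end. The transcript with the largest ratio, IMMRT10000143871, was at 116 RPKM in lung from 5538 reads and had no read in the other 4 libraries. It lies on chromosome 7 between 99441233 and 99452612 (rheMac2), 27.5 kb from NKX2-1. The next, IMMRT10000143722, spans 99437506 to 99477740 on the same chromosome, 2.36 kb from NKX2-1, and was at 76.2 RPKM in lung, 0.00663 in cerebellum and 0 in the other 3. Both are near a gene that had no read outside lung.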

How the results depend on the processing

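The number of genes at least 4 times higher in lung was 268. It was 507 with a pseudocount of 0.1 RPKM, 168 with DESeq2 size factors, 693 without spleen, 423 without kidney, 860 at a ratio of 2 and 73 at a ratio of 10. It lay between 179 and 324 under the other alternatives. The number of genes at 0.25 or less of the lowest other tissue in RPKM + 1 was 0. It was 12 with a pseudocount of 0.1 RPKM, 1 with upper quartile, TMM or DESeq2 scaling, 2 for sums over transcripts, 15 without spleen, 2 without cerebellum, 1 without kidney, 4 without heart and 18 at a ratio of 0.5. The top 10 share of reads, 4.53%, was 7.87% with 1 transcript per gene and 5.37% of summed RPKM. Of 30 lists, 12 had a median log2 ratio to the highest other tissue above 0, against 21 without spleen, 10 with TMM and 9 with DESeq2, which was added for the lists after the data were seen. Without spleen the median reversed for T and NK cells (2.23), B and plasma cells (0.97), MHC class II (2.35), chemokines and cytokines (0.70), spleen markers (1.02) and the cell cycle (0.68), and the median also changed sign for myeloid (-0.56 to 3.13), neutrophil (-0.09 to 3.12) and interferon response genes (-0.36 to 1.03). The cause was not tested, except that a comparison with fewer tissues can only raise the ratio to the highest. No paired analysis was possible because each tissue has 1 library. Leaving out a replicate was not possible for the same reason, and precision is limited by the absence of replicates rather than by depth.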

Other observations

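Some genes outside the lists stood well above the other tissues in lung and were picked after their values were seen. HPGD, which degrades prostaglandins, was at 214 RPKM in lung, 20.7 in kidney, 3.90 in spleen, 0.0733 in cerebellum and 0.0404 in heart. SLCO2A1, which carries prostaglandins into cells, was at 165 in lung and 33.1 in kidney, with at most 2.83 elsewhere. PTGS2, the inducible prostaglandin synthase gene, was at 7.03 in lung and 1.02 in spleen. The serotonin transporter gene SLC6A4 was at 47.6 in lung and 1.65 in kidney, with at most 0.107 in the other 3. Thrombomodulin, THBD, an anticoagulant of the vessel wall, was at 211 in lung and 31.9 in spleen, and the secreted ribonuclease gene RNASE1 was at 1273 in lung, 169 in heart and between 3.90 and 76.4 in the other 3. The lymphatic growth factor genes VEGFC and VEGFD were at 22.3 and 9.25 in lung and at most 4.33 and 0.260 elsewhere.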
